A study of Mus musculus with 18 samples.

Results

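The hypoxia-inducible and glycolysis genes examined here are 33 listed genes, taken by name and not by any measured value. They comprise 12 glycolytic enzymes, 5 transporters and regulators of glycolytic flux, 8 signalling and stress genes, 2 mitophagy genes, 3 oxygen-sensing prolyl hydroxylases, and 3 further genes for 2 collagen prolyl hydroxylase subunits and a disulfide oxidase. All 33 passed the filter on low values, at least 1 FPKM in at least 2 libraries, and so stand among 12358 genes tested of 23212 named. RNA-seq was run on immortalized mouse embryonic fibroblasts from rela-/- embryos that carried 1 of 3 retrovirally delivered RelA proteins. RelA(TA2) cells carried RelA with substitutions in the TA2 activation region that contacts the TAZ1 domain of CBP, RelA(Ser276Ala) cells carried RelA whose Ser276, a phosphorylation site, was exchanged for alanine, and RelA(wt) cells carried the wild-type protein. Each line was sampled before TNFα (0 h) and after 1 h and 2 h of TNFα at 5 ng/ml, with 2 libraries per condition and 18 libraries in all. Each RelA variant is represented by 1 reconstituted line, so the variant and whatever else differs between the lines cannot be told apart. The paper calls the 2 replicates of a condition independent but does not say that they were separate cultures. The p-values therefore measure only the spread between these libraries, which may be technical.

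Hypoxia-inducible factors (HIFs) are transcription factors whose α subunit is hydroxylated by the Egln prolyl hydroxylases when oxygen is plentiful, bound by the von Hippel-Lindau protein Vhl, and degraded. When oxygen falls, HIF-1α accumulates, pairs with Arnt, binds a short DNA element, and recruits CBP or p300 through the same TAZ1 domain that the RelA TA2 region contacts. Cited2, itself a HIF target, competes with HIF-1α for TAZ1. The genes HIF turns on raise glucose uptake, glycolysis and lactate production, blood vessel growth and mitochondrial turnover, and NF-κB is known to raise the transcription of Hif1a.

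The level of each gene was read on a pair of measures. The main one was FPKM (fragments per kilobase of transcript per 1000000 mapped fragments), summed over the transcripts assembled for the gene, which allows levels to be compared between genes. The other was the number of fragments recovered from the deposited FPKM, its confidence limits and the transcript lengths, given per 1000000 fragments in genes and written FPM below. FPM is not scaled by length, so it is compared only between libraries, and it varied less between replicates: the median replicate SD was 0.0632 on the log2 scale for FPM and 0.108 for FPKM. A gene was called when its Benjamini-Hochberg adjusted p over all 12358 genes was below 0.05 in limma, and log2 differences were taken after adding 0.5, which understates the change of low genes. Unless fragments or FPM are named, a value is FPKM.

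The libraries held an estimated 25.2 to 31.2 M mapped fragments, M standing for 1000000. The correlation between replicates, taken on log2 FPM, ranged from 0.961 to 0.971. Rela itself was read at 315 to 366 FPKM in RelA(TA2) libraries, 174 to 212 in RelA(Ser276Ala) libraries and 156 to 187 in RelA(wt) libraries. Its mRNA was thus higher in RelA(TA2) than in RelA(wt) by a log2 difference of 0.95 (SE 0.058, limma adjusted p = 3.9e-06). RelA(Ser276Ala) minus RelA(wt) was 0.10 and was not called (limma adjusted p = 0.318). These values are mRNA and do not give the amount of protein. The paper reports less RelA protein in the RelA(Ser276Ala) line than in the RelA(wt) line. It proposes that this largely explains the reduced Nfkbia expression of that line. The part of these differences in RelA mRNA or protein in the results below was not tested. The NF-κB targets Nfkbia and Tnfaip3 rose at 1 h in every line, by log2 differences of 3.57 and 4.58 in RelA(TA2), 3.69 and 4.05 in RelA(Ser276Ala), and 3.86 and 5.69 in RelA(wt). The 10 fibroblast markers summed to 3540 to 4853 FPKM per library, against 13.2 to 36.9 FPKM for 6 macrophage markers, of which 3 were listed at 0 throughout. In bulk RNA, fewer cells with a transcript and less transcript per cell cannot be told apart.

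The members spanned a wide range of levels. Gapdh averaged 2395 ± 356 FPKM (SD, n = 18 libraries), followed by Tpi1 at 506 ± 65.0, Aldoa at 442 ± 76.0, Eno1 at 434 ± 63.2, Pgam1 at 404 ± 56.2, Ldha at 332 ± 106 and Pgk1 at 276.1 ± 60.7 FPKM. These 7 enzymes of the lower and middle steps of glycolysis were thus the most abundant members, and Tpi1, Aldoa, Eno1 and Pgam1 lay within about 1 SD of their neighbours. Below them came Ndrg1, a growth and stress gene, at 161 FPKM and the isomerase Gpi1 at 133 FPKM, then a group between 44 and 52 FPKM with the glucose transporter Slc2a1, Bhlhe40, Hk1, Egln1, Bnip3l, Ero1l and P4ha1. The Hk1 mean was raised by 254 FPKM in 1 RelA(TA2) library and 113 and 78.1 in RelA(Ser276Ala), all at 1 h. All other libraries had 19.7 to 49.4 FPKM of Hk1, and its fragments ranged only from 99.5 to 142 FPM. Hk2 (13.7 FPKM), Adm (9.75), Pdk1 (6.19), Pfkfb3 (5.89) and Pfkfb4 (5.29) were low. Ankrd37 and the lactate exporter Slc16a3 were at the detection limit and listed at 0 in 10 and 14 of the 18 libraries.

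TNFα raised a few of these genes. On FPKM they were signalling and stress genes, the enzyme Hk2 and the flux regulator Pfkfb4, and none of the most abundant enzymes. On fragments, some abundant enzymes were also called higher, in RelA(TA2) at 2 h only. In RelA(TA2) cells 3 of 33 members were called higher and 0 lower at 1 h, beside 1.04% of all genes called higher and 0.688% called lower. At 2 h the RelA(TA2) counts were 4 higher and 0 lower, beside 1.76% and 1.89% of all genes. In RelA(Ser276Ala) cells 0 members were called in either direction at 1 h (limma, 5 members at an unadjusted p under 0.05 and 2 called on fragments), beside 0.898% of genes called higher and 0.526% lower, and 1 was called higher and 0 lower at 2 h, beside 0.696% and 0.291%. In RelA(wt) cells 1 member was called higher and 0 lower at 1 h, beside 1.00% and 0.494% of all genes, and 3 were called higher and 0 lower at 2 h, beside 1.28% and 0.453%. The 1 h and 2 h comparisons of a line share its 0 h libraries.

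The fragment test called more genes. By it 6 members were called at 1 h in RelA(TA2) (4 higher, 2 lower), beside 10.3% of all genes in either direction, and 15 at 2 h (12 higher, 3 lower), beside 27.6%. In RelA(Ser276Ala) 2 members were called at 1 h, both higher, beside 6.30% of genes, and 4 at 2 h (3 higher, 1 lower), beside 10.3%. In RelA(wt) 2 members were called at 1 h, both higher, beside 6.90% of genes, and 8 at 2 h (6 higher, 2 lower), beside 12.8%. The share of members called was 18.2% in RelA(TA2) and 6.06% in each of the other lines at 1 h, where 6.06% is close to the share of all genes. At 2 h it was 45.5% in RelA(TA2), 12.1% in RelA(Ser276Ala) and 24.2% in RelA(wt).

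Promoter sequence is shown for 3 of the called members, chosen after their values were seen as the largest rise at 1 h and the largest rises of flux genes at 2 h in RelA(wt): Adm (rose at 1 h), Hk2 (rose at 2 h in RelA(TA2) and RelA(wt)) and Pfkfb4 (rose at 2 h in RelA(wt)). Each is the 250 bases before the gene's start, 5′ to 3′ on the gene's strand, from RefSeq on GRCm38.p6. Capitals mark the core of the hypoxia response element, searched as ACGTG and GCGTG on both strands (CACGT and CACGC when read from the other strand). The windows are chr7:110627407-110627656 on the + strand for Adm, chr6:82774455-82774704 on the - strand for Hk2 and chr9:108991652-108991901 on the + strand for Pfkfb4.
Adm: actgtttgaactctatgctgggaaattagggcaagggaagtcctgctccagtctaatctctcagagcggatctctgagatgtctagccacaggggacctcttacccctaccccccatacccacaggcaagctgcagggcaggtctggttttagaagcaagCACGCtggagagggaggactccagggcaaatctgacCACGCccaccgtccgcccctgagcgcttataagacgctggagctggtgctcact
Hk2: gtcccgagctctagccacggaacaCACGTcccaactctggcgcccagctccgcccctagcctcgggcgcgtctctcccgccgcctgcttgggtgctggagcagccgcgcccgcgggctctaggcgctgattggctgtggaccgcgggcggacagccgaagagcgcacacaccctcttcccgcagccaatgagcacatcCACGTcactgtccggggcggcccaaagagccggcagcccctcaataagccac
Pfkfb4: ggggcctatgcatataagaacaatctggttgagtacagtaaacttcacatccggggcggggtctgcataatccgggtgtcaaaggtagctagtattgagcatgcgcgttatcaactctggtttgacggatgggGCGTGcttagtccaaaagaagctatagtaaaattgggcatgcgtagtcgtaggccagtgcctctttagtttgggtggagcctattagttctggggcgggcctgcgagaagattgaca
Adm and Hk2 held 2 matches each and Pfkfb4 held 1.

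Hk2, the inducible hexokinase that phosphorylates glucose at the entry to glycolysis, lies on chromosome 6 (mm10, 82725027 to 82774454, - strand). Its level in RelA(TA2) was 7.17 and 8.04 FPKM at 0 h, 16.5 and 14.0 at 1 h and 23.5 and 27.2 at 2 h. In RelA(Ser276Ala) it was 10.4 and 10.3 FPKM at 0 h, 9.11 and 9.68 at 1 h and 15.6 and 12.6 at 2 h. In RelA(wt) it was 9.02 and 8.55 FPKM at 0 h, 10.6 and 9.54 at 1 h and 20.1 and 24.0 at 2 h. Every 2 h library of all 3 lines lay above the untreated libraries of its line, as did the 1 h libraries of RelA(TA2) and, by less, of RelA(wt). The log2 rise was 0.96 at 1 h (SE 0.139, limma adjusted p = 0.00482) and 1.67 at 2 h (adjusted p = 0.000145) in RelA(TA2), and 1.28 at 2 h (adjusted p = 0.000797) in RelA(wt). In RelA(Ser276Ala) the 2 h difference passed on fragments only, at 0.48 (SE 0.127, adjusted p = 0.035), and was lost without any of 3 libraries (adjusted p up to 0.201).

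The bifunctional enzymes Pfkfb3 and Pfkfb4 set the level of fructose 2,6-bisphosphate, the activator of phosphofructokinase. Pfkfb4 was at 9.61 and 10.4 FPKM at 2 h in RelA(wt), against 4.95 and 5.05 before TNFα, a log2 rise of 0.93 (SE 0.123, limma adjusted p = 0.00276). With only its most abundant transcript in place of the sum, the difference was -0.011. In RelA(TA2) it was at 5.62 and 6.45 FPKM at 2 h, against 4.03 and 4.23 before, and passed on fragments only (log2 0.51, adjusted p = 0.00846, and 0.0753 without 1 of the 2 h libraries). In RelA(Ser276Ala) the values were 6.59 and 5.94 FPKM at 2 h, against 4.54 and 4.58 before, and neither measure was called. Both mutant lines lay above their untreated libraries at 2 h but below RelA(wt) at that time, with log2 differences of -0.68 in RelA(TA2) (adjusted p = 0.0156) and -0.63 in RelA(Ser276Ala) (adjusted p = 0.0205). Pfkfb3 was called on fragments at 2 h: 15.1 and 17.2 FPM in RelA(TA2), against 9.08 and 10.95 before TNFα, and 10.5 and 10.8 in RelA(wt), against 5.99 and 4.87. Its FPKM ranged from 2.16 to 14.8 between the 2 replicates of RelA(wt) at 2 h, and no FPKM change was called. The fragment call in RelA(TA2) was lost without either of 2 libraries (adjusted p up to 0.0943).

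Slc2a1, the basal glucose transporter, was called on fragments in all 3 lines at both times and on FPKM in none. RelA(TA2) libraries had 142 and 153 FPM at 0 h, 246 and 228 at 1 h and 237 and 247 at 2 h. RelA(Ser276Ala) libraries had 210 and 214 FPM at 0 h, 270 and 297 at 1 h and 287 and 245 at 2 h. RelA(wt) libraries had 169 and 177 FPM at 0 h, 226 and 219 at 1 h and 249 and 264 at 2 h. Treated and untreated libraries did not overlap on fragments within any line. The log2 rises on fragments were 0.68 and 0.71 at 1 h and 2 h in RelA(TA2), 0.42 and 0.32 in RelA(Ser276Ala), and 0.36 and 0.57 in RelA(wt) (SE 0.0747 each, limma adjusted p from 7.11e-05 to 0.0205). The calls in RelA(TA2) and in RelA(wt) at 2 h were kept without each of the 18 libraries. Those in RelA(Ser276Ala) were lost without 1 library at 1 h (adjusted p = 0.0525) and any of 3 at 2 h (up to 0.125), and that in RelA(wt) at 1 h without any of 3 (up to 0.108). Pdk1, which restrains pyruvate entry into mitochondria, was not called in any line after TNFα.

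**Figure D1:**
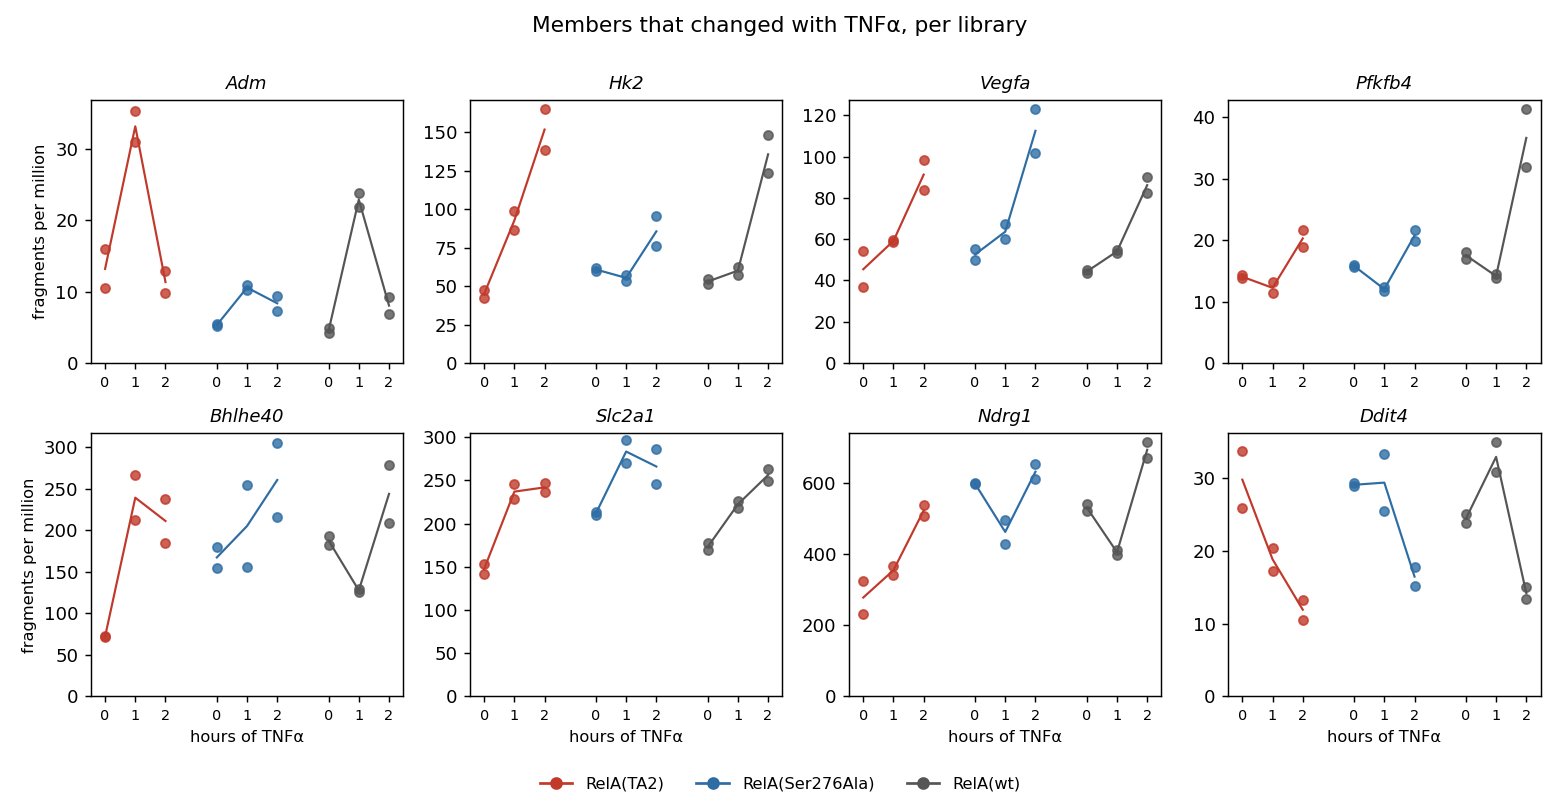
Recovered fragments per 1000000 fragments in genes (FPM, y) of Adm, Hk2, Vegfa, Pfkfb4, Bhlhe40, Slc2a1, Ndrg1 and Ddit4 against hours of TNFα (x) for RelA(TA2), RelA(Ser276Ala) and RelA(wt), 1 point per library, with lines joining the means of 2 libraries. Adm peaked at 1 h (35.3 and 31.0 in RelA(TA2)), Hk2 and Vegfa were highest at 2 h, and Ddit4 was lowest at 2 h (10.5 to 17.7 across the lines).

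Adm encodes adrenomedullin, a secreted vasodilator peptide, and was the member called on FPKM at 1 h in RelA(wt). It lies on chromosome 7 (mm10, 110627669 to 110629819, + strand). RelA(TA2) had 12.2 and 7.94 FPKM at 0 h, 23.7 and 22.4 at 1 h and 7.77 and 9.55 at 2 h. RelA(Ser276Ala) had 3.95 and 4.20 FPKM at 0 h, 8.46 and 7.91 at 1 h and 7.23 and 5.47 at 2 h. RelA(wt) had 3.12 and 5.39 FPKM at 0 h, 18.3 and 16.5 at 1 h and 5.15 and 6.31 at 2 h. The 1 h libraries lay above the untreated ones in every line, and at 2 h the RelA(TA2) and RelA(wt) FPKM had come back into the untreated range or close to it. The 1 h rise was 1.95 on the log2 scale in RelA(wt) (SE 0.248, limma adjusted p = 0.00156) and 1.19 in RelA(TA2) (adjusted p = 0.0403). The RelA(TA2) call was lost when any of 13 of the 18 libraries was left out (adjusted p up to 0.18), whereas on fragments (1.33, adjusted p = 0.00195) it was kept without each of the 18. In RelA(wt) the 2 h difference passed on fragments only (0.75, adjusted p = 0.0374) and was lost without any of 9 of the 18 libraries (adjusted p up to 0.251). In RelA(Ser276Ala) the 1 h difference was 0.92 on FPKM (adjusted p = 0.144) and passed on fragments (0.93, adjusted p = 0.0213), where leaving out any of 4 libraries ended the call (adjusted p up to 0.125).

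Vegfa, the vascular endothelial growth factor and a classical HIF target, was the member called at 2 h in all 3 lines. It was at 23.8 and 27.1 FPKM at 2 h in RelA(TA2), against 12.9 and 17.4 before TNFα, at 34.5 and 28.2 in RelA(Ser276Ala), against 17.5 and 17.5, and at 27.2 and 29.0 in RelA(wt), against 16.0 and 14.96. The treated libraries lay above the untreated ones in every line. The log2 rises were 0.74 (limma adjusted p = 0.0253), 0.82 (adjusted p = 0.0345) and 0.84 (adjusted p = 0.0199) in that order of lines, with an SE of 0.152 each. These FPKM calls were lost without any of 3, 11 and 4 of the 18 libraries (adjusted p up to 0.14, 0.14 and 0.0925), but the fragment calls (1.02, 1.08 and 0.95) were kept without each of the 18. The 1 h differences of Vegfa passed on neither measure.

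Bhlhe40, a transcriptional repressor of the clock and of the hypoxia response, started low in RelA(TA2). On fragments it was at 72.2 and 71.8 FPM at 0 h, 267 and 212 at 1 h and 185 and 237 at 2 h in RelA(TA2). In RelA(Ser276Ala) it was at 180 and 155 FPM at 0 h, 156 and 254 at 1 h and 305 and 216 at 2 h. In RelA(wt) it was at 193 and 182 FPM at 0 h, 129 and 126 at 1 h and 209 and 279 at 2 h. Both RelA(wt) libraries at 1 h lay below the untreated ones, whereas both RelA(TA2) libraries lay above theirs by a wide margin. The RelA(TA2) rise was 1.49 on FPKM at 1 h (SE 0.301, limma adjusted p = 0.0341) and 1.30 at 2 h (adjusted p = 0.0415), and 1.72 and 1.53 on fragments. The FPKM calls were lost without any of 8 and 12 of the 18 libraries (adjusted p up to 0.174 and 0.196), and the fragment calls were kept without each.

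Ndrg1 also started low in RelA(TA2). It was at 169 and 174 FPKM at 2 h in RelA(TA2), against 108 and 74.1 before TNFα, a log2 rise of 0.93 (SE 0.138, limma adjusted p = 0.00463). In RelA(Ser276Ala) it was at 195 and 201 FPKM at 2 h, against 199 and 197, and in RelA(wt) at 217 and 222, against 170 and 172, and neither difference was called. At 2 h the RelA(TA2) libraries had reached the level that RelA(wt) had before TNFα. The untreated RelA(TA2) replicates differed from each other (324 and 232 FPM), and the RelA(TA2) call was kept without either.

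Ddit4, an inhibitor of the mTOR kinase complex, was the member that fell on fragments in all lines at 2 h. It was at 13.3 and 10.5 FPM in RelA(TA2) at 2 h, against 25.9 and 33.6 before TNFα, at 15.2 and 17.7 in RelA(Ser276Ala), against 28.8 and 29.3, and at 15.02 and 13.3 in RelA(wt), against 23.8 and 25.0. The log2 differences were -1.28, -0.81 and -0.76 (SE 0.164 each, limma adjusted p = 0.000278, 0.0117 and 0.0114). In RelA(TA2) it had fallen by 1 h as well, with a log2 difference of -0.64 on fragments (adjusted p = 0.0311). Of these 4 calls, the one of RelA(TA2) at 2 h was kept without each of the 18 libraries, and the others were each lost without any of 3 libraries (adjusted p up to 0.209). On FPKM none was called: the 2 h differences were -1.25 in RelA(TA2) and -0.80 in RelA(Ser276Ala), and 0.81 in RelA(wt), the opposite direction, with 20.2 and 31.2 FPKM at 2 h, against 13.6 and 14.7 before TNFα.

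The glycolytic enzymes other than Hk2 moved little. Among the 12, the FPKM test called Hk2 alone, in RelA(TA2) at both times and in RelA(wt) at 2 h, and the median log2 difference of the 12 on FPKM lay between -0.13 and 0.09 over the 6 comparisons. On fragments, 4 further enzymes were called, all higher and all in RelA(TA2) at 2 h. Ldha, which reduces pyruvate to lactate, was at 561 and 510 FPM, against 416 and 298 before TNFα (log2 0.60, SE 0.158, limma adjusted p = 0.0156). Pgk1 rose by 0.33, Eno1 by 0.30 and Gapdh by 0.24 on the log2 scale (adjusted p = 0.0288, 0.0468 and 0.0491). The Eno1 and Gapdh calls were lost without any of 15 and 14 of the 18 libraries, the Ldha call without 2 of them and the Pgk1 call without 3. On FPKM the Gapdh difference was -0.38, in the opposite direction and not called. The highest untreated libraries came close to the treated ones: Eno1 had 704 FPM in 1 untreated library, against 795 and 770 at 2 h. These enzymes have many processed pseudogenes, and fragments that could belong to a near-identical copy are uncertain.

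The mitophagy receptors Bnip3 and Bnip3l, which mark mitochondria for degradation, were slightly lower on fragments at 2 h. In RelA(TA2) they fell by 0.28 and 0.22 on the log2 scale (limma adjusted p = 0.0152 and 0.0378), and in RelA(wt) Bnip3 fell by 0.29 (adjusted p = 0.0226), with no change called on FPKM. The RelA(TA2) calls were lost without any of 2 libraries for Bnip3 and 8 for Bnip3l (adjusted p up to 0.0898 and 0.24), and the RelA(wt) call without any of 4 (up to 0.145). Of the prolyl hydroxylases, Egln3, itself hypoxia-inducible, rose on fragments in RelA(TA2) at 2 h, at 25.3 and 29.6 FPM against 21.1 and 22.0 before TNFα (log2 0.34, adjusted p = 0.00944, and 0.091 without 1 of the 2 h libraries). Egln1, the main HIF-α hydroxylase, fell on fragments in RelA(TA2) at 1 h (-0.22, adjusted p = 0.032), a call lost without any of 3 libraries (adjusted p up to 0.159), and its FPKM difference was 0.36, in the opposite direction and not called. Egln2, another HIF-α hydroxylase, the collagen hydroxylase subunits P4ha1 and P4ha2, the oxidase Ero1l, the histone demethylase Kdm3a, the mitochondrial protein Higd1a, and Hk1, Gpi1, Pfkl, Pfkp, Aldoa, Tpi1, Pgam1, Slc16a3 and Ankrd37 passed on neither measure at any time.

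**Figure D2:**
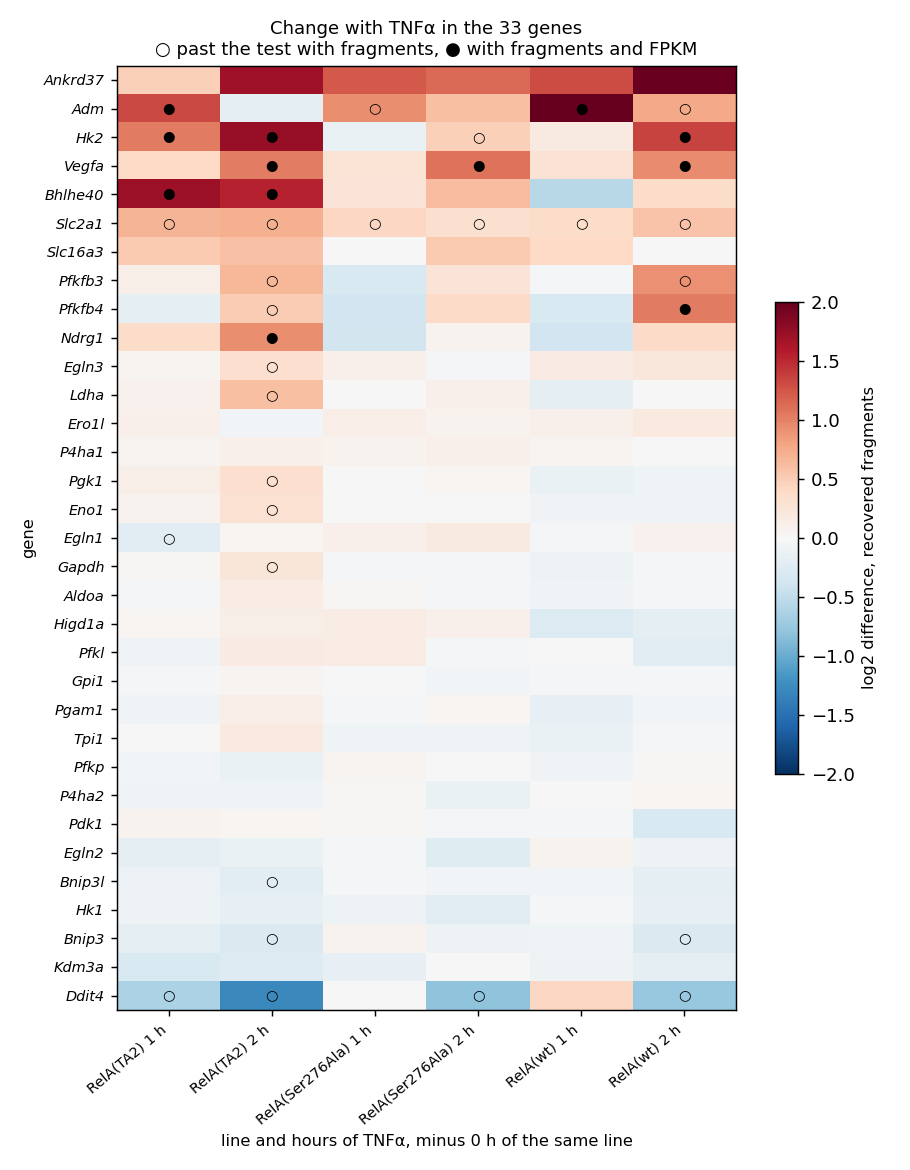
Log2 difference on recovered fragments (colour) of the 33 members (rows) after 1 h and 2 h of TNFα against 0 h in RelA(TA2), RelA(Ser276Ala) and RelA(wt) (columns), where an open circle marks a member past the fragment test and a filled circle one past both measures. Hk2, Slc2a1, Vegfa and Adm carry most of the positive marks, and 15 members are marked in RelA(TA2) at 2 h, against 4 in RelA(Ser276Ala) and 8 in RelA(wt). Of all genes, 27.6%, 10.3% and 12.8% were called on fragments in these comparisons, in the same order.

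Whether the response itself differed from that of RelA(wt) was tested as the difference between the 2 changes. On FPKM, 0 members were called in RelA(TA2) at 1 h (limma, 4 at an unadjusted p under 0.05, beside 0.283% of all genes called) or at 2 h (5 at an unadjusted p under 0.05, beside 0.202%). Likewise 0 were called in RelA(Ser276Ala) at 1 h (3 at an unadjusted p under 0.05, beside 0.235%) or at 2 h (4, beside 0.162%). On fragments, 3 members differed in RelA(TA2) at 1 h, beside 1.68% of all genes, and 0 at 2 h (10 at an unadjusted p under 0.05), beside 0.340%. In RelA(Ser276Ala) the fragment counts were 0 at 1 h (3 at an unadjusted p under 0.05) and 0 at 2 h (5), beside 0.235% and 0.275%.

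The 3 members were Bhlhe40, Hk2 and Ddit4. The Bhlhe40 change to 1 h on fragments was 2.27 higher in RelA(TA2) than in RelA(wt) on the log2 scale (SE 0.331, limma adjusted p = 0.00957), and that of Hk2 was 0.86 higher (SE 0.179, adjusted p = 0.0387). The Ddit4 change was -1.06 (SE 0.233, adjusted p = 0.0481), with 17.2 and 20.4 FPM at 1 h in RelA(TA2), against 34.9 and 30.9 in RelA(wt). On FPKM the same 3 differences were 1.94, 0.77 and -1.06 and none was called (adjusted p = 0.127, 0.2 and 0.725). The next member, Ndrg1, differed by 0.76 on fragments (adjusted p = 0.0522). For RelA(Ser276Ala) minus RelA(wt), the difference between the changes of Adm at 1 h (-1.29 on fragments, adjusted p = 0.313) and of Hk2 at 2 h (-0.86, adjusted p = 0.102) did not pass the threshold.

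The lines were next compared over all times, with 6 libraries on each side. Between the mutant lines most of the abundant enzymes were called on FPKM, and fewer were called against RelA(wt). Gapdh, the most abundant, was called only on fragments between the mutant lines, a call lost without any of 3 libraries (limma adjusted p up to 0.0595). The 3 comparisons share libraries. Between RelA(TA2) and RelA(wt), 1 member was higher and 6 were lower, beside 5.43% and 5.75% of all genes. Between RelA(Ser276Ala) and RelA(wt), 4 were higher and 1 lower, beside 6.93% and 5.15%. Between RelA(TA2) and RelA(Ser276Ala), 2 were higher and 9 lower, beside 5.46% and 6.55%. On fragments the members called were 19 (5 higher, 14 lower), beside 40.8% of all genes, 22 (17 higher, 5 lower), beside 44.3%, and 24 (4 higher, 20 lower), beside 43.5%, in the same order. The median log2 difference of the 33 on FPKM was -0.11 for RelA(TA2) minus RelA(wt), 0.11 for RelA(Ser276Ala) minus RelA(wt) and -0.20 for RelA(TA2) minus RelA(Ser276Ala), beside 0.00, 0.02 and -0.02 over all genes.

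Most glycolytic enzymes were highest in RelA(Ser276Ala) and lowest in RelA(TA2). By the mean log2 FPKM, 10 of the 12 were highest in RelA(Ser276Ala) and 8 of the 12 lowest in RelA(TA2), and on fragments the counts were 10 and 9. Their median difference between RelA(TA2) and RelA(Ser276Ala) was -0.33 on FPKM and -0.35 on fragments, beside -0.02 over all genes on each measure. Between these lines, 6 of the 12 were lower and 1 higher on FPKM, and 10 were lower and 1 higher on fragments. Hk2 was the enzyme called in the other direction, at 0.36 higher in RelA(TA2) (SE 0.0803, limma adjusted p = 0.0158). Pfkp was also higher in RelA(TA2) on FPKM but was not called.

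Promoter windows of Ldha, Bnip3 and Pgk1 are shown because, of the members called on FPKM, these 3 were furthest below RelA(Ser276Ala) in RelA(TA2) cells. They are the same 250-base upstream windows from RefSeq on GRCm38.p6, with the same marking: chr7:46845554-46845803 on the + strand for Ldha, chr7:138909507-138909756 on the - strand for Bnip3 and chrX:106186850-106187099 on the + strand for Pgk1.
Ldha: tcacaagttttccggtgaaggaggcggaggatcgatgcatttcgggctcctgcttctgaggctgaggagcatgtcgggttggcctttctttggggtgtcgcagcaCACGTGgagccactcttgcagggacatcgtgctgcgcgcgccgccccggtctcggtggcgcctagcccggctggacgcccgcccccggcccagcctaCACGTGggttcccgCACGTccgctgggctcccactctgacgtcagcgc
Bnip3: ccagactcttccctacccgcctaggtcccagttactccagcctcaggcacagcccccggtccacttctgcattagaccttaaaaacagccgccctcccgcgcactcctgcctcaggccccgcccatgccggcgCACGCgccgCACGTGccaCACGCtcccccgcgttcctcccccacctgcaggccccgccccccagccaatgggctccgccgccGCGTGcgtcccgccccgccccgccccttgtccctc
Pgk1: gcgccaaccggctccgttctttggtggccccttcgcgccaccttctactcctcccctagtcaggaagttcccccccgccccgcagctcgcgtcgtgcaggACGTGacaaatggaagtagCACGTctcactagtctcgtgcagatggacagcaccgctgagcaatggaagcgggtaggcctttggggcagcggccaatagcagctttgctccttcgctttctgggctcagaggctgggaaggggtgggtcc
Ldha and Bnip3 held 5 matches each and Pgk1 held 2. A palindromic CACGTG counts once on each strand. Of the 33 members, 29 had a window and Bnip3l, Ndrg1, Ero1l and Bhlhe40 did not. The motif was present in 24 of the 29 (82.8%), beside 38.6% of all 32851 windows and 57.3% of the 8790 windows of tested genes, and 5 or more matches were present in 1.01% of all windows and 2.01% of those of tested genes. Vegfa, Aldoa, Tpi1, Hk1 and Gpi1 held none in this window. A match describes the letters and not binding.

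Ldha was lower in RelA(TA2) than in RelA(Ser276Ala). Its lowest, median and highest FPKM were 186, 255 and 338 in RelA(TA2), 386, 468 and 525 in RelA(Ser276Ala), and 249, 275 and 328 in RelA(wt). All RelA(Ser276Ala) libraries lay above all libraries of both other lines, and RelA(TA2) overlapped RelA(wt). The log2 differences were -0.89 for RelA(TA2) minus RelA(Ser276Ala) (SE 0.118, limma adjusted p = 0.000761) and 0.71 for RelA(Ser276Ala) minus RelA(wt) (adjusted p = 0.00308), and -0.18 for RelA(TA2) minus RelA(wt) was not called (adjusted p = 0.412). Ldha was at or above 0.59 in RelA(Ser276Ala) minus RelA(wt) at each of the 3 times.

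Bnip3 separated all 3 lines. Its lowest, median and highest FPKM were 9.22, 10.6 and 12.4 in RelA(TA2), 16.9, 19.3 and 21.3 in RelA(Ser276Ala), and 12.9, 14.5 and 16.1 in RelA(wt), so no library of 1 line overlapped another line. The differences were -0.42 for RelA(TA2) minus RelA(wt) and 0.42 for RelA(Ser276Ala) minus RelA(wt) (SE 0.0579, limma adjusted p = 0.00117 and 0.00105), and -0.83 between the mutant lines (adjusted p = 8.52e-06). On fragments the difference from RelA(wt) was past the threshold at each time in both mutant lines. Its relative Bnip3l was at 36.1 to 48.0 FPKM in RelA(TA2), 47.5 to 54.0 in RelA(Ser276Ala) and 47.0 to 58.5 in RelA(wt), and RelA(TA2) minus RelA(wt) was -0.36 (adjusted p = 0.00117).

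**Figure D3:**
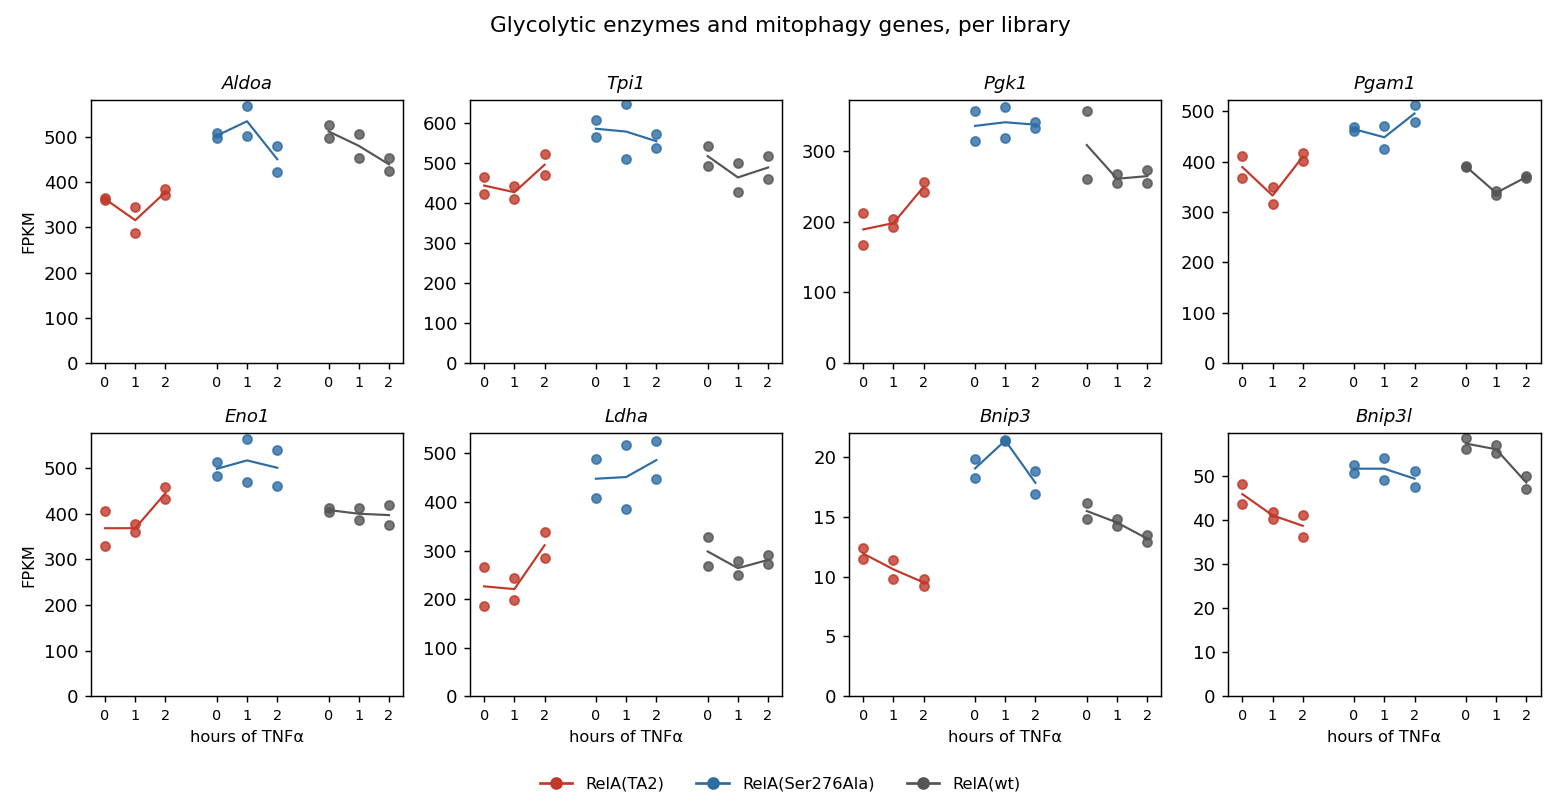
FPKM per library (y, from 0) of Aldoa, Tpi1, Pgk1, Pgam1, Eno1, Ldha, Bnip3 and Bnip3l against hours of TNFα (x) in RelA(TA2), RelA(Ser276Ala) and RelA(wt), 1 point per library, 6 libraries per line, with lines joining the means of 2 libraries. The 6 Bnip3 libraries of each line form separate ranges (9.22 to 12.4, 16.9 to 21.3 and 12.9 to 16.1 FPKM), and the 6 Ldha libraries of RelA(Ser276Ala) lie above all others.

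The enzymes of the middle and lower steps were called as follows. Aldoa, the aldolase that splits the hexose, was at 287, 363 and 384 FPKM (lowest, median, highest) in RelA(TA2), 422, 499 and 568 in RelA(Ser276Ala), and 425, 476 and 526 in RelA(wt). RelA(TA2) overlapped neither other line and was lower than both, with log2 differences of -0.44 from RelA(wt) (SE 0.0609, limma adjusted p = 0.00115) and -0.49 from RelA(Ser276Ala) (adjusted p = 0.000455). Pgk1, which makes the first ATP of the pathway, was at 166, 208 and 257 FPKM in RelA(TA2), 314, 338 and 363 in RelA(Ser276Ala), and 255, 264 and 357 in RelA(wt). It was lower in RelA(TA2), with differences of -0.39 from RelA(wt) (adjusted p = 0.0158) and -0.68 from RelA(Ser276Ala) (adjusted p = 0.000565). The Pgk1 difference from RelA(wt) was -0.70 before TNFα and -0.08 at 2 h, so it was not alike at all times.

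Pgam1 and Eno1, a mutase and an enolase of the lower steps, differed mainly in RelA(Ser276Ala). The isomerase Tpi1 was called on FPKM only between the mutant lines. Pgam1 was at 315 to 417 FPKM in RelA(TA2), 425 to 513 in RelA(Ser276Ala) and 334 to 390 in RelA(wt), 0.36 higher in RelA(Ser276Ala) than in RelA(wt) (SE 0.0472, limma adjusted p = 0.000717). Eno1 was at 330 to 458 FPKM in RelA(TA2), 461 to 565 in RelA(Ser276Ala) and 375 to 419 in RelA(wt), 0.33 higher in RelA(Ser276Ala) than in RelA(wt) (adjusted p = 0.0138). Every RelA(Ser276Ala) library of these 2 genes lay above every library of the other lines. Tpi1 was lower in RelA(TA2) than in RelA(Ser276Ala), at a difference of -0.33 (adjusted p = 0.0149). On fragments it was also called lower in RelA(TA2) than in RelA(wt), a call kept without each of the 18 libraries. It was called higher on fragments in RelA(Ser276Ala) than in RelA(wt), a call lost without any of 4 (limma adjusted p up to 0.0585). The Eno1 copy Gm5506 was listed at 0 in all 18 libraries.

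Among the regulators, Adm was higher in RelA(TA2) than in RelA(wt) by 0.70 (SE 0.143, limma adjusted p = 0.0106) and than in RelA(Ser276Ala) by 1.01 (adjusted p = 0.00111). Most of that lay before TNFα, at 1.16 (adjusted p = 0.0336) over RelA(wt), against 0.40 at 1 h and 0.56 at 2 h. Ndrg1 was lower in RelA(TA2) than in RelA(wt), at -0.48 (adjusted p = 0.0035), again mostly before TNFα (-0.93, adjusted p = 0.00491). Pfkfb4 was lower in both mutant lines than in RelA(wt), at -0.39 in RelA(TA2) (adjusted p = 0.00583) and -0.33 in RelA(Ser276Ala) (adjusted p = 0.0131), mostly at 2 h. Bhlhe40 was lower in untreated RelA(TA2) on fragments, at -1.38 (adjusted p = 0.00185), and higher at 1 h, at 0.89 (adjusted p = 0.021). The FPKM calls between lines over all times were kept without each of the 18 libraries, and those at single times were not run without single libraries.

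Fragments alone added further differences between lines. Of the 3 oxygen-sensing prolyl hydroxylases, Egln1 and Egln3 were called higher than in RelA(wt) in both mutant lines, and Egln2 in RelA(Ser276Ala) (0.18, limma adjusted p = 0.0132) but not in RelA(TA2) (0.055, adjusted p = 0.404). Egln3 had 21.1 to 29.6 FPM in RelA(TA2) and 21.2 to 24.9 in RelA(Ser276Ala), against 15.2 to 18.5 in RelA(wt) (log2 0.47 and 0.40, limma adjusted p = 1.2e-05 and 4.02e-05), whereas its FPKM differences were 0.21 and -0.11 and not called. Egln1 had 93.2 to 116 in RelA(TA2), against 73.7 to 81.4 in RelA(wt) (0.44, adjusted p = 1.6e-06). The collagen hydroxylase subunit P4ha2 was higher in both, by 0.34 and 0.45. In RelA(TA2), Pfkfb3 was 0.79 higher than in RelA(wt) on fragments, Ero1l differed by -0.42 and Pdk1 by -0.35. Pdk1 had 17.4 to 19.8 FPM in RelA(TA2), against 19.3 to 27.8 in RelA(wt). The FPKM differences of Pfkfb3 (-0.96) and Ero1l (0.0017) in RelA(TA2) pointed the other way, so these directions, like that of Egln3 in RelA(Ser276Ala), depend on the measure. In RelA(Ser276Ala), Ero1l differed from RelA(wt) by -0.43 on fragments and 0.0017 on FPKM, and Pfkl and Higd1a were higher by 0.37 and 0.35 on fragments.

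**Figure D4:**
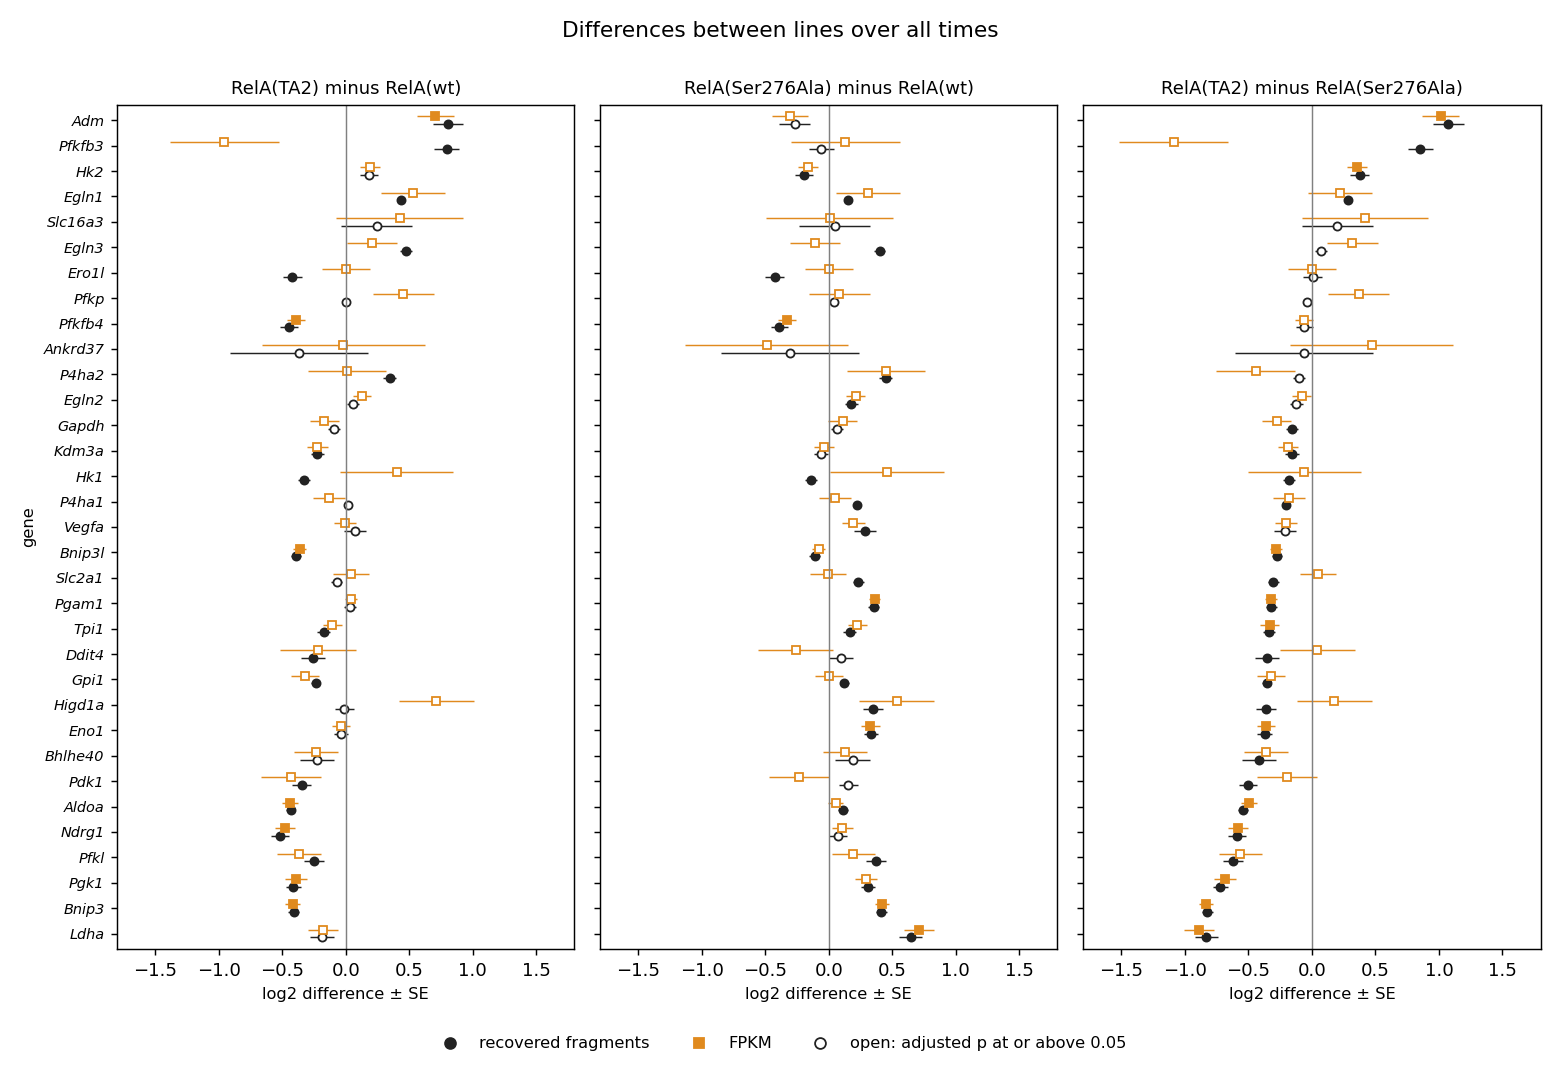
Log2 difference ± SE (x) of the 33 members (rows) for RelA(TA2) minus RelA(wt), RelA(Ser276Ala) minus RelA(wt) and RelA(TA2) minus RelA(Ser276Ala) over all times (3 panels), with black circles for fragments, orange squares for FPKM and open symbols for an adjusted p of 0.05 or more. Most glycolytic enzymes lie left of 0 in the third panel, with Ldha at -0.89 and Bnip3 at -0.83 on FPKM, and Adm and Hk2 lie right of it.

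The HIF machinery itself was examined as a list of 15 genes, of which 12 were tested. Cited2 rose in every line at 1 h: it was at 221 and 234 FPKM in RelA(TA2), against 89.2 and 83.5 before TNFα, at 240 and 255 in RelA(Ser276Ala), against 78.9 and 79.7, and at 216 and 238 in RelA(wt), against 68.4 and 68.1. The log2 rises were 1.40, 1.64 and 1.72 (SE 0.0696 each, limma adjusted p = 2.14e-06, 7.95e-07 and 2.43e-07). Vhl, the recognition subunit of the ligase that degrades HIF-α, fell by 0.47 in RelA(wt) at 1 h (adjusted p = 0.0485), and on fragments it fell by 0.31, 0.44 and 0.48 in RelA(TA2), RelA(Ser276Ala) and RelA(wt). Hif1a was at 38.7 to 49.6 FPKM in all libraries and was not called after TNFα on either measure. The co-activators Crebbp and Ep300 were read at 5.31 to 13.7 and 10.2 to 25.1 FPKM and were not called after TNFα either. Arnt, the partner of HIF-1α, was lower on fragments in RelA(TA2) at 1 h (-0.19, adjusted p = 0.0456) and at 2 h (-0.29, adjusted p = 0.00269) and in RelA(Ser276Ala) at 2 h (-0.23, adjusted p = 0.0209). Between lines over all times on FPKM, 1 of the 12 was called higher and 1 lower for RelA(TA2) minus RelA(wt). The counts were 3 and 1 for RelA(Ser276Ala) minus RelA(wt), and 1 and 0 between the mutant lines. Cited2 exceeded its RelA(wt) level by 0.25 in RelA(TA2) and 0.30 in RelA(Ser276Ala) (limma adjusted p = 0.00296 and 0.000808). Arnt differed from RelA(wt) by -0.18 in RelA(Ser276Ala) (adjusted p = 0.032). The Vhl difference between the mutant lines was 0.24 (adjusted p = 0.021), with RelA(TA2) above.

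Other genes known to be induced by hypoxia were a list of 36, of which 29 were tested. With TNFα, 5 rose at 1 h and 7 at 2 h in RelA(TA2), 3 and 5 in RelA(Ser276Ala), and 4 and 7 in RelA(wt), and 0 fell on FPKM in any (limma). Of all genes, 1.04% and 1.76%, 0.898% and 0.696%, and 1.00% and 1.28% were called higher on FPKM, in the same order. On fragments 8 and 13, 4 and 9, and 4 and 10 of the list were called higher, and 2 and 6, 1 and 2, and 1 and 2 lower. The shares of all genes called on fragments are given below. Hmox1, the haem oxygenase, rose at both times in all lines by 0.43 to 0.65 on the log2 scale. Of 21 tested other enzymes of glycolysis and lactate metabolism, listed as 27, 1 was called after TNFα on FPKM: Pgam2, the muscle form of phosphoglycerate mutase, in RelA(TA2) at 2 h (2.20, adjusted p = 0.0366). Pgam2 was not called higher on fragments in that comparison. On fragments 2 were called at 1 h and 6 at 2 h in RelA(TA2), 3 and 2 in RelA(Ser276Ala), and 1 and 0 in RelA(wt) (limma, 5 at an unadjusted p under 0.05 in RelA(wt) at 2 h). Beside them stand 10.3% and 27.6% of all genes in RelA(TA2), 6.30% and 10.3% in RelA(Ser276Ala), and 6.90% and 12.8% in RelA(wt), so that the 6 of 21 in RelA(TA2) at 2 h are close to the share of all genes. All of these calls but the lactate transporter Slc16a1 in RelA(TA2) at 2 h (0.67) were lower. Pdk4 and Pdk2, relatives of Pdk1, differed by -1.64 at 1 h and -0.76 at 2 h in RelA(TA2) (adjusted p = 0.00431 and 0.00435), and Pdk4 by -1.25 at 1 h in RelA(Ser276Ala) (adjusted p = 0.0262). Pkm2, which makes pyruvate, was higher in RelA(Ser276Ala) than in RelA(wt) by 0.33 (adjusted p = 0.0189) and lower in RelA(TA2) than in RelA(Ser276Ala), at -0.51 (adjusted p = 0.0018), in the same direction as Ldha.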

How the data were processed

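RNA from immortalized mouse fibroblasts was sequenced after poly(A) selection, 18 libraries in all. Per the labels, the authors' processing used CASAVA 1.8.2 for base calls, TopHat2 2.0.5 with Bowtie2 2.0.0.7 for alignment, the mm10 build, and Cufflinks 2.0.2 for transcript assembly. The deposited values are FPKM per assembled transcript in each library, held with its confidence limits, coordinates and coverage, and gene names came from the deposited merged assembly. The authors' own comparisons with Cuffdiff were not used. Transcripts were placed on genes by position (at least 50% overlap, bedtools 2.31.1), and FPKM was summed per gene. For a transcript that was the only isoform of its locus, the number of fragments was recovered from FPKM and its upper confidence limit, and 88.9% to 90.2% of these values below 500 fragments were whole within 0.02. For the other transcripts it was FPKM times a curve of fragments per FPKM on length. Mapped fragments, 25.2 to 31.2 M per library, were estimated separately, as the slope of a straight line of fragments per FPKM on length over long transcripts. They describe the libraries and entered no test. Because transcripts were assembled per library, summed FPKM can vary where a gene was assembled in pieces.

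The genes tested were those that reached 1 FPKM in 2 or more libraries. Values were fitted as log2(value + 0.5) in limma 3.58.1 (R 4.3.3), with 1 mean per line and time, all 18 libraries in the fit and 9 residual degrees of freedom. The limma test was two-sided, with a trend in the spread and Benjamini-Hochberg adjustment over all 12358 genes. FPKM was the main measure. The fit on fragments and the other alternatives are compared in the closing section, and the scripts were tested on simulated data. Tables were handled in Python 3.11.15 with pandas 2.3.3.

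Named members were those called on FPKM, up to 10 per comparison, and up to 5 more called on fragments only, plus Vegfa, Slc2a1, Pdk1, Ldha, Adm, Ddit4, Bhlhe40 and Bnip3 in every case. The remaining members named on fragments were chosen after their values were seen. The members, their roles and the gene lists were chosen with earlier results of these data known.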

Additional observations from a re-analysis of the deposited data

Results flagged for a closer look

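The change from 0 h to 1 h of TNFα differed between RelA(TA2) and RelA(wt) for 3 of the 33 members on recovered fragments, by limma's test of the difference between the 2 changes. The difference was 2.27 on the log2 scale for Bhlhe40 (2.269, SE 0.331, adjusted p = 0.00957), 0.857 for Hk2 (SE 0.179, adjusted p = 0.0387) and -1.06 for Ddit4 (-1.061, SE 0.233, adjusted p = 0.0481). Untreated RelA(TA2) libraries had 72.2 and 71.8 FPM (fragments per 1000000 fragments in genes) of Bhlhe40, against 193 and 182 in untreated RelA(wt) libraries, so the lines also differed before TNFα. The Bhlhe40 call was kept without each of the 18 libraries, the Hk2 call was lost without any of 9 of them and the Ddit4 call without any of 13. On FPKM the 3 differences were 1.94, 0.77 and -1.06 and were not called (adjusted p = 0.127, 0.2 and 0.725). Why the 3 responses differ was not tested.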

How the results depend on the processing

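Of 105 pairs of a member and a comparison called on either measure, 35 were past the FPKM test and 70 past the fragment test only. Over 8 alternatives other than left-out libraries, the FPKM pairs kept their side of the threshold in 272 results, were weaker in 7 and reversed in 1, and leaving out each of the 18 libraries gave 579 and 51. The fragment pairs were not run over those 8 but over median-of-ratios scaling, the replicate block and the return to summed FPKM. They gave 130, 66 and 14, and 1070 and 190 without single libraries. These 70 pairs were defined as not called on FPKM, so the return to FPKM could only weaken or reverse them. The 66 and 14 therefore do not measure how stable the fragment calls are. The alternatives were 0.1 and 1 FPKM added before the logarithm, no filter, a filter at 5 FPKM, median-of-ratios scaling, the most abundant transcript of a gene, fragments and a replicate block. For members named on fragments, median-of-ratios scaling, the replicate block, left-out libraries and the return to summed FPKM were chosen after seeing the data.

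On fragments, the members called after TNFα were 6 at 1 h and 15 at 2 h in RelA(TA2), 2 and 4 in RelA(Ser276Ala), and 2 and 8 in RelA(wt), and between lines 19, 22 and 24, with 3 in the difference of changes at 1 h. The shares of all genes called, which also differ between these comparisons, stand beside the counts in the results above. The numbers do not pair the samples (correlations from -0.0829 to 0.0839 on FPKM and from -0.0789 to 0.139 on fragments, with 2 of 36 pairs of conditions over 0.1), and with the replicate block the RelA(TA2) count at 1 h was 1 on FPKM, against 3, and the difference of changes at 1 h was 1 on fragments, against 3. The block changed no other count by over 1.5 times.

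Pfkfb4 in RelA(wt) at 2 h was -0.011 with only its most abundant transcript. On summed FPKM the direction found on fragments reversed for Ddit4 in RelA(wt) at 2 h (0.81), Egln1 in RelA(TA2) at 1 h (0.36) and Gapdh in RelA(TA2) at 2 h (-0.38). It also reversed for RelA(TA2) minus RelA(wt) in Ero1l (0.0017), Pfkfb3 (-0.96) and Hk1 (0.40), for RelA(Ser276Ala) minus RelA(wt) in Slc2a1 (-0.0079), Egln3 (-0.11), Ero1l (0.0017) and Hk1 (0.46), and for RelA(TA2) minus RelA(Ser276Ala) in Slc2a1 (0.047), Pfkfb3 (-1.09), Ddit4 (0.042) and Higd1a (0.18). The cause was not tested.

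Without single libraries, FPKM counts after TNFα ranged from 1 to 4 at 1 h and 2 to 4 at 2 h in RelA(TA2), 0 to 1 and 0 to 2 in RelA(Ser276Ala), and 1 to 2 at 1 h in RelA(wt). Those of the differences in change ranged from 0 to 2 and 0 to 1 in RelA(TA2), and 0 to 2 and 0 to 1 in RelA(Ser276Ala). Fragment counts ranged from 7 to 17 at 2 h in RelA(TA2), 0 to 3 and 1 to 6 in RelA(Ser276Ala), and 1 to 3 and 5 to 9 in RelA(wt), and the differences in change from 1 to 5 and 0 to 4 in RelA(TA2) and 0 to 1 at 2 h in RelA(Ser276Ala).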

Other observations

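Several hypoxia-inducible genes outside the 33 had larger responses than most of them. Angptl4, a secreted inhibitor of lipoprotein lipase, was at 23.9 and 22.8 FPKM at 2 h in RelA(TA2), against 3.77 and 3.18 before TNFα, at 19.3 and 14.9 in RelA(Ser276Ala), against 4.19 and 4.16, and at 13.2 and 16.1 in RelA(wt), against 6.04 and 6.37. Its log2 rise at 2 h exceeded that of RelA(wt) by 1.42 in RelA(TA2) (SE 0.214, limma adjusted p = 0.0304, and 1.68 with adjusted p = 0.0126 on fragments). Mt2, a metallothionein that binds zinc, was at 537 and 535 FPKM at 2 h in RelA(TA2), against 68.3 and 82.6 before, and its rise was 1.51 larger than in RelA(wt) on FPKM (adjusted p = 0.0284) and 0.68 larger on fragments, which was not called (adjusted p = 0.289). Stc1, stanniocalcin 1, was lower over all times in RelA(TA2), with a log2 difference of -1.17 from RelA(wt) (SE 0.0671, adjusted p = 2.41e-06), at 11.1 to 20.6 FPKM against 26.8 to 49.8. It was also lower in RelA(Ser276Ala) than in RelA(wt), at -0.58 (limma adjusted p = 0.000348) and 19.1 to 30.8 FPKM. The nuclear receptor gene Rora was listed at 0 in all 6 RelA(TA2) libraries. It was low in the other lines as well, at 1.92 to 6.25 FPKM and 0.422 to 3.35 FPM.

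The pentose phosphate pathway was tested in full, with 7 of 7 genes. After TNFα 0 of the 7 were called on FPKM or on fragments in limma, with 0 or 1 at an unadjusted p under 0.05 in each comparison. Between lines, Taldo1, the transaldolase, was higher in RelA(Ser276Ala) than in RelA(wt) by 0.38 (adjusted p = 0.00127) and lower in RelA(TA2) than in RelA(Ser276Ala), at -0.45 (adjusted p = 0.000415). Among 33 tested genes of the citrate cycle and respiratory chain, the FPKM calls after TNFα were Sucla2 in RelA(wt) (-1.10 at 1 h and -1.17 at 2 h) and Ogdh in RelA(Ser276Ala) (-0.96 and -1.09). Neither gene was called on fragments in those comparisons.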
